A study of Mus musculus with 24 samples.

Results

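The 56 genes described here encode the machinery of the cell cycle and of DNA replication. They were taken by symbol from a list, with no threshold on a measured value, and all 56 were found among the 23306 genes of the expression table. They comprise 14 replication genes, 25 mitosis genes, 4 genes of the mitotic cyclin and Cdk1 group, 7 G1 cyclins and Cdks, 3 inhibitors of cyclin-dependent kinases and 3 transcription regulators. A dividing cell first commits itself in G1, when D-type cyclins with Cdk4 or Cdk6 and E-type cyclins with Cdk2 release E2F transcription factors from their repressors. E2F proteins then switch on the genes for the MCM helicase, nucleotide synthesis and the replication fork, and later FoxM1 and B-Myb switch on the genes for chromosome segregation. In the dentate gyrus, where neurons are made in adult life, such genes are known to be on in activated stem cells and above all in intermediate progenitors, and off in the neurons these produce.

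All mice were female C57BL6 animals of the genotype Nes-CreERT2::RiboTag, with 1 tagged and 1 wild-type copy of Rpl22 (RPL22HA/WT), and all had received 160 mg/kg tamoxifen on each of 5 days at 9 to 11 weeks of age. Tamoxifen activates the Cre, which the Nestin promoter drives, and recombined cells and their descendants then carry an HA tag on the ribosomal protein Rpl22, so ribosome-bound RNA can be precipitated from them. Running mice had a free wheel and sedentary mice a blocked one, for 11, 18 or 27 days. The 24 libraries form 12 groups of 2: precipitate (IP, which the labels assign to immature neurons) or input (RNA of the dentate gyrus), running or sedentary, and 1 of the 3 days. Whether the 2 libraries of a group stem from different mice, and how many mice each holds, is not in the labels, so the p-values reflect the spread between libraries only, and that spread may be technical. Values are in TPM, a unit scaled per transcript length and to a fixed total, so that levels of different genes can be compared, but keep no read depth: the depth behind each value is unknown.

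Of the 9 fixed lists of cell type markers, those of immature neurons (Dcx, Sox11, Igfbpl1, Calb2, Draxin, Neurod1) summed to 571 to 1570 TPM in IP and 209 to 405 TPM in input, and those of intermediate progenitors to 81.4 to 222 TPM in IP and 17.0 to 31.8 TPM in input. The 8 stem cell markers summed to 631 to 1173 TPM in IP and 311 to 475 TPM in input and the astrocyte markers, a related cell type, to 1098 to 2226 TPM in IP and 787 to 1203 TPM in input. Oligodendrocyte markers also summed higher in IP, to 871 to 1345 TPM against 432 to 688 TPM in input. Microglial markers summed to 49.1 to 114 TPM in IP and 164 to 250 TPM in input, and none of the markers was listed at 0 in any library. Olfactory receptor genes, which serve here as a measure of background because they belong to sensory neurons of the nose, averaged 1.71 to 4.99 TPM over 1122 genes in the IP libraries. In the input libraries the same average was 1.06 to 4.41 TPM at day 11, 8.0 to 16.4 TPM at day 18 and 2.87 to 5.54 TPM at day 27. At day 18, 43 of the 56 genes had a mean input level at or under that average, against 9 at day 11 and 27 at day 27. In IP the count was 0 at day 11, 1 at day 18 (Cdkn1a) and 8 at day 27. Differences of low genes that involve the day 18 input therefore rest on values near the background, as do many of those that involve the day 27 input. The part that background plays in them was not tested.

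The promoters of these genes carry short sequences by which they are known to be timed: the cell cycle genes homology region (CHR, TTTGAA), often downstream of CCAAT boxes (CCAAT), in genes of G2 and mitosis, and E2F sites (searched as TTTCCCGC, TTTGGCGC, TTTCGCGC and TTTGCCGC) in genes of S phase. RefSeq promoters on GRCm38.p6, each from 250 bases before to 50 bases after the annotated start, were found for 44 of the 56 genes and searched on both strands. A CHR was found in 17 of 22 promoters of mitosis genes (77.3%), in 1 of 13 of replication genes (7.69%, Mcm2) and in 17.9% of all 32851 promoters. An E2F sequence was found in 6 of 13 promoters of replication genes (46.2%: Mcm3, Mcm5, Mcm6, Mcm7, Cdc6 and Cdt1), in 0 of 22 of mitosis genes and in 2.26% of all promoters. A CCAAT box was found in 77.3% of the promoters of mitosis genes, 69.2% of those of replication genes and 37.4% of all. A match describes letters and does not show that a factor binds. The bases just before the start of 3 genes of mitosis and 1 of replication are shown in full because they hold both arrangements, with the matches in capitals on either strand (ATTGG and TTCAAA are the reverse of CCAAT and TTTGAA, and GCGCGAAA that of TTTCGCGC). All 4 genes lie on the minus strand, and the sequences are those of that strand from 5′ to 3′.
Top2a, chr11:99024190-99024309: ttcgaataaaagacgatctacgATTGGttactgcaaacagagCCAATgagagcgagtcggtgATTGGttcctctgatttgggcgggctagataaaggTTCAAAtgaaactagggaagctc
Mki67, chr7:135716380-135716574: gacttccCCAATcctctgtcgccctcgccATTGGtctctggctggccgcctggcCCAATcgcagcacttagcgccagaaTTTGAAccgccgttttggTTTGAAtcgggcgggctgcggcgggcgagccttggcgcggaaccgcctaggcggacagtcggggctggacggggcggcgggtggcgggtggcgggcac
Ccnb2, chr9:70421555-70421729: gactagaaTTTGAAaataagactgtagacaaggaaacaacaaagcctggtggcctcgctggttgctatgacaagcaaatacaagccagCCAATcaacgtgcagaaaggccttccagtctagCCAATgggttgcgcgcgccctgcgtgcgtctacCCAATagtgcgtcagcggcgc
Mcm6, chr1:128359706-128359825: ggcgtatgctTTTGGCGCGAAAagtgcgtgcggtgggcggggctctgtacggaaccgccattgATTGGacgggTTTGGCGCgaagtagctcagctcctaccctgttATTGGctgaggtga
In Top2a and Mki67 the TTTGAA matches shown lie downstream of the CCAAT boxes shown, and in Ccnb2 the match shown lies upstream of them. The 50 bases after the annotated start are not shown, and whether a match shown is a working CHR was not tested. In Mcm6 the upstream capitals hold 2 overlapping E2F sequences, 1 on each strand.

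Most of the 56 genes had a higher TPM in the IP than in the input. Of the 56 genes, 49 were higher in IP (limma on log2(TPM + 1), two-sided, Benjamini-Hochberg adjusted p below 0.05, here called; background 41.4% of all genes tested) and 2 were lower (background 28.5%). Their median log2 difference was 1.41, against 0.12 over all genes. With median-of-ratios scaling, the share of higher calls among all called genes moved from 59.3% to 40.1% and the median of all genes from 0.12 to -0.12, while 48 of the 56 stayed called higher and their median was 1.17. In bulk libraries such as these, a difference in the number of dividing cells and one in the RNA of each cell cannot be told apart. Nor can a difference in how far these RNAs are bound to ribosomes, since only the IP is selected for ribosome-bound RNA. All log2 differences given here are on the log2(TPM + 1) scale. On it, the change of a low gene comes out too small.

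Top2a, the topoisomerase that untangles sister chromatids, stood farthest apart. Its level was 27.2 to 95.35 TPM in the 12 IP libraries (median 50.3) and 1.92 to 5.2 TPM in the 12 input libraries (median 3.04), so that the lowest IP library lay above the highest input library. The means were 54.3 ± 23.2 and 3.15 ± 0.881 TPM (SD, n = 12), a 17.3-fold ratio of means, and the log2 difference was 3.65 (SE 0.09; adjusted p = 6.11e-17 by limma). Next among the mitosis genes were Tpx2, which nucleates spindle microtubules (log2 difference 2.57), and Ube2c, the ubiquitin-conjugating enzyme of the anaphase-promoting complex (2.23). Mki67, the proliferation marker Ki-67 that coats mitotic chromosomes, had 11.8 to 31.8 TPM in IP and 3.30 to 10.5 TPM in input. Its log2 difference was 1.56 (SE 0.10; adjusted p = 7.92e-11 by limma), and the ranges did not overlap. Of the 25 mitosis genes 23 were higher, with a median of 1.52. The other 2 were the spindle checkpoint gene Mad2l1 (0.08, SE 0.12) and the cytokinesis gene Anln (0.12, SE 0.12).

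Of the replication genes, 13 of 14 were higher in IP, with a median log2 difference of 1.42. The largest differences were those of Rrm2, the small subunit of ribonucleotide reductase (2.34), and of the helicase subunits Mcm3 (2.24), Mcm2 (2.20) and Mcm7 (1.88). Mcm2 had 15.3 to 29.4 TPM in the IP libraries and 2.76 to 5.13 TPM in the input libraries, 21.2 ± 4.82 against 3.79 ± 0.670 TPM (SD, n = 12). The 6 MCM subunits form 1 ring in equal amounts, but their IP levels differed: Mcm6 averaged 66.4 ± 11.8 TPM, Mcm7 57.8 ± 13.5 TPM and Mcm3 29.5 ± 9.04 TPM. Mcm6 was also higher in input (29.6 ± 4.18 TPM), and its log2 difference was 1.13. Pcna, the sliding clamp that holds the polymerase to DNA, rose least among the called genes of this group (0.55, SE 0.09; adjusted p = 2.66e-05 by limma), and its input level was 53.9 ± 8.60 TPM. Tyms, thymidylate synthase, was not called (-0.16, SE 0.18) and is described below with Spc24 and E2f1.

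The mitotic cyclins and Cdk1 (4 genes) were all higher in IP over the 3 days together: Ccna2 by 1.97, Ccnb2 by 1.77, Cdk1 by 1.11 and Ccnb1 by 0.85 on the log2 scale. At day 18 alone Ccnb1 was lower in IP, with a mean of 10.6 TPM (6.89 to 14.9) against 15.8 TPM in input (12.6 to 17.9). Cdk1, the kinase that drives entry into mitosis, was nonetheless low in IP, at 4.99 ± 1.54 TPM (SD, n = 12). The G1 genes were mixed. The kinases Cdk4 and Cdk6 and cyclin D2 were higher: Cdk4 had 75.3 to 136 TPM in IP and 20.5 to 41.0 TPM in input (log2 difference 1.74, SE 0.11), Cdk6 14.5 to 30.6 and 2.85 to 8.43 TPM (1.82, SE 0.12) and Ccnd2 72.9 to 140 and 35.8 to 53.3 TPM (1.25, SE 0.10). Cyclin D1 was not called: Ccnd1 had 14.9 ± 2.26 TPM in IP and 16.3 ± 2.61 TPM in input (SD, n = 12), a log2 difference of -0.12 with a 95% interval from -0.29 to 0.05. Thus the IP held 108 ± 21.6 TPM of Ccnd2 beside 14.9 TPM of Ccnd1, whereas in input the pair stood at 44.3 ± 5.36 and 16.3 TPM. Cyclin E1 was lower in IP (Ccne1, -0.57, SE 0.07; adjusted p = 8.72e-07 by limma), Cdk2, its kinase, was higher (0.66), and cyclin E2 was not called (Ccne2, 0.12, SE 0.13).

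The inhibitors did not behave alike. Cdkn1b, which encodes p27 and holds cells in G1, had 46.9 to 76.3 TPM in IP and 25.6 to 41.7 TPM in input, ranges that did not overlap (log2 difference 0.76, SE 0.07; adjusted p = 1.39e-08 by limma). Cdkn1c, which encodes p57 and is known from quiescent stem cells, was higher in IP by 0.64 (SE 0.14; adjusted p = 5.62e-04 by limma), at 7.95 ± 2.76 against 4.68 ± 1.5 TPM (SD, n = 12). Cdkn1a, which encodes the p53 target p21, was lower in IP (-0.48, SE 0.13; adjusted p = 0.00285 by limma), at 2.52 ± 1.08 against 3.96 ± 1.73 TPM. Without the day 18 libraries the Cdkn1a difference was -0.22 and that of Cdkn1c 0.32, and neither was called. The 3 transcription regulators were higher: Foxm1 by 1.43, E2f1 by 1.05 and Mybl2, which encodes B-Myb, by 0.62. The plot of IP against input for each gene shows this order.

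**Figure D1:**
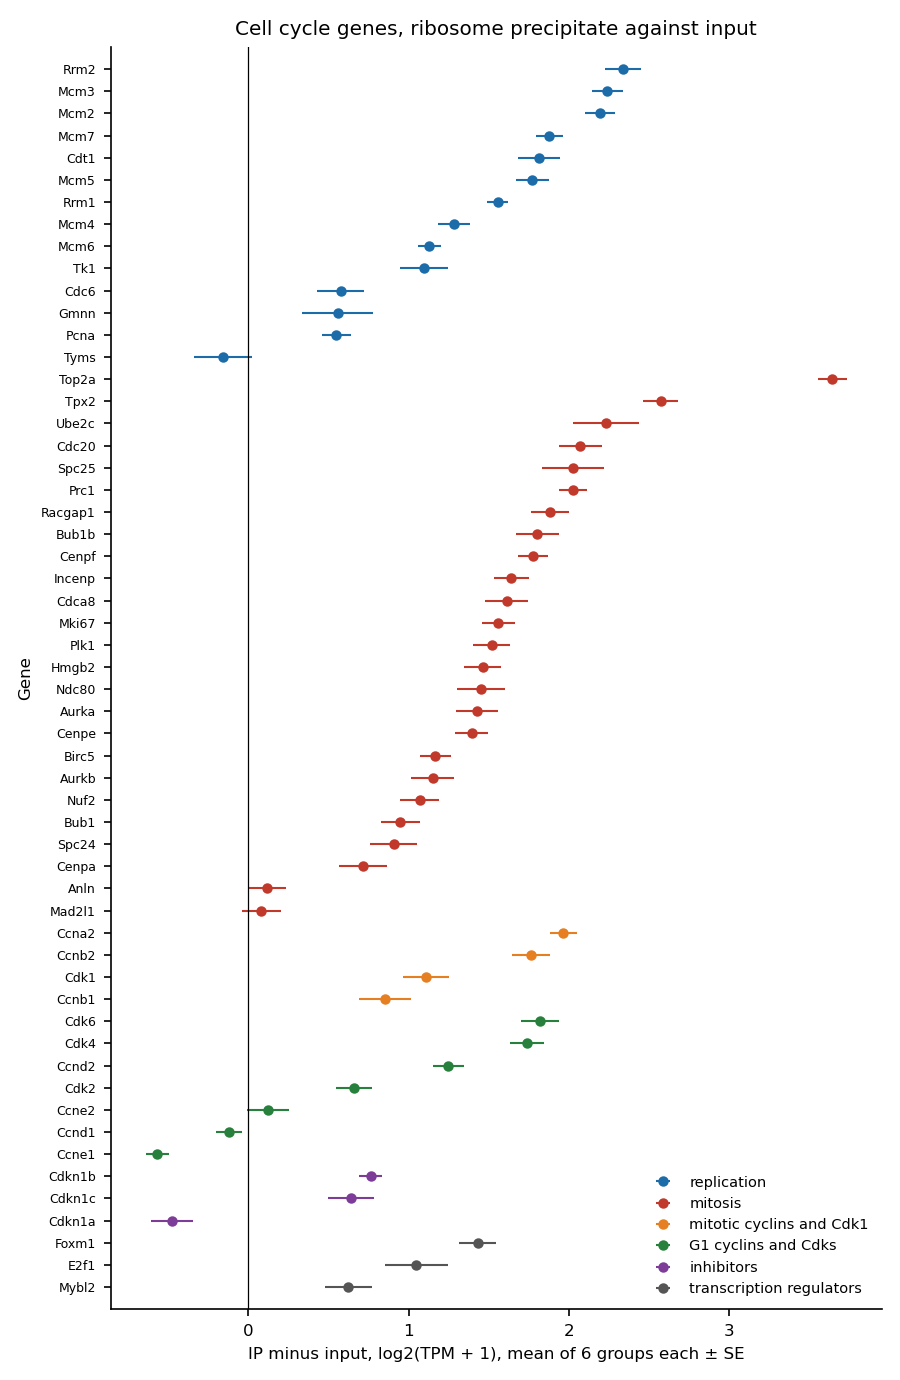
Log2 difference of IP minus input on the log2(TPM + 1) scale for each of the 56 genes, grouped by role, as the mean of 6 groups in each fraction with its standard error. Top2a lies farthest to the right at 3.65, and 4 genes lie left of 0: Tyms, Ccnd1, Ccne1 and Cdkn1a.

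Further genes of the same pathways came from lists assembled with the members, and their counts stand beside a background of 41.4% higher and 28.5% lower. Among 42 other replication genes 38 were higher in IP and 0 lower, at the adjusted and at the unadjusted threshold, among them Uhrf1 (2.57), Pold1 (1.73), Lig1 (1.59) and Pole (1.70). Among 56 other mitosis genes 50 were higher and 2 lower (Cit and Pttg1), with Ncapd2 (1.90), Kif11 (1.89), Ccnf (1.58) and Nusap1 (1.41) at the lowest p. Among 31 other regulators of cell cycle entry and exit the counts were 18 and 5, with Trp53 (1.58), Cables1 (1.37) and E2f6 (0.60) higher and Ccng1 (-0.90) lower.

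The enrichment was present at each time. At day 11, 50 of the 56 genes were higher in IP than in input (background 29.2%), at day 18 it was 37 (background 33%) and at day 27 it was 42 (background 34.6%). The median log2 difference was 1.91 at day 11, 1.10 at day 18 and 1.28 at day 27. Each day's count sets IP against the input of that day, so the high background level of the day 18 input stands beside the low count.

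Within the IP, the genes of mitosis fell with time. From day 11 to day 27, 33 of the 56 genes fell (background 3.88%) and 2 rose (background 11.4%), and their median log2 difference was -0.57, against 0.15 over all genes. Among the mitosis genes 19 of 25 fell, with a median of -0.82, and among the mitotic cyclins and Cdk1 4 of 4, with a median of -0.86. Of the replication genes 8 of 14 fell, with a median of -0.53, of the G1 genes 2 of 7, and of the inhibitors and transcription regulators 0, although Cdkn1b was lower at an unadjusted p of 0.00979. No test compared the roles with one another.

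Top2a shows the course. Its IP level was 76.5 and 95.35 TPM in the running and 82.7 and 64.5 TPM in the sedentary libraries of day 11, 70.6 and 55.9 (running) and 44.7 and 33.9 TPM (sedentary) at day 18, and 32.0, 33.4, 35.0 and 27.2 TPM at day 27. All 4 libraries of day 27 lay below all 4 of day 11, while those of day 18 overlapped both. The means were 79.8 ± 12.9 and 31.9 ± 3.33 TPM (SD, n = 4), a drop of 60.0%, and the log2 difference was -1.29 (SE 0.14; adjusted p = 1.03e-04 by limma). Tpx2 fell from 47.6 ± 7.30 to 18.0 ± 1.67 TPM (-1.35), and Hmgb2, a chromatin protein abundant in dividing cells, from 146 ± 34.7 to 56.8 ± 11.0 TPM (-1.34). The kinetochore genes Nuf2 (-1.58), Spc25 (-1.43) and Ndc80 (-0.96), whose products join with that of Spc24 in 1 complex, fell together.
Mki67 had 26.4, 31.7, 31.8 and 18.0 TPM at day 11 and 13.4, 14.5, 14.7 and 15.6 TPM at day 27, without overlap (-0.81, SE 0.18; adjusted p = 0.00723 by limma). Ccnb1 fell by 1.0 (SE 0.20; adjusted p = 0.00455 by limma) and Cdk1 by 0.73 (SE 0.19; adjusted p = 0.0205 by limma). The calls of Mki67, Ccnb1 and Cdk1 were lost without both letter a IP libraries of day 11 (-0.68, -0.86 and -0.75), those of Mki67 and Cdk1 also without the sedentary one alone (-0.62 and -0.71). That of Cdk1 was lost too without either letter f library of day 27 (-0.73 and -0.64). The 6 mitosis genes that were not called were Cdc20 (-0.56), Incenp (-0.43), Bub1 (-0.55), Aurka (-0.34), Plk1 (-0.28) and Spc24 (0.63).

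**Figure D2:**
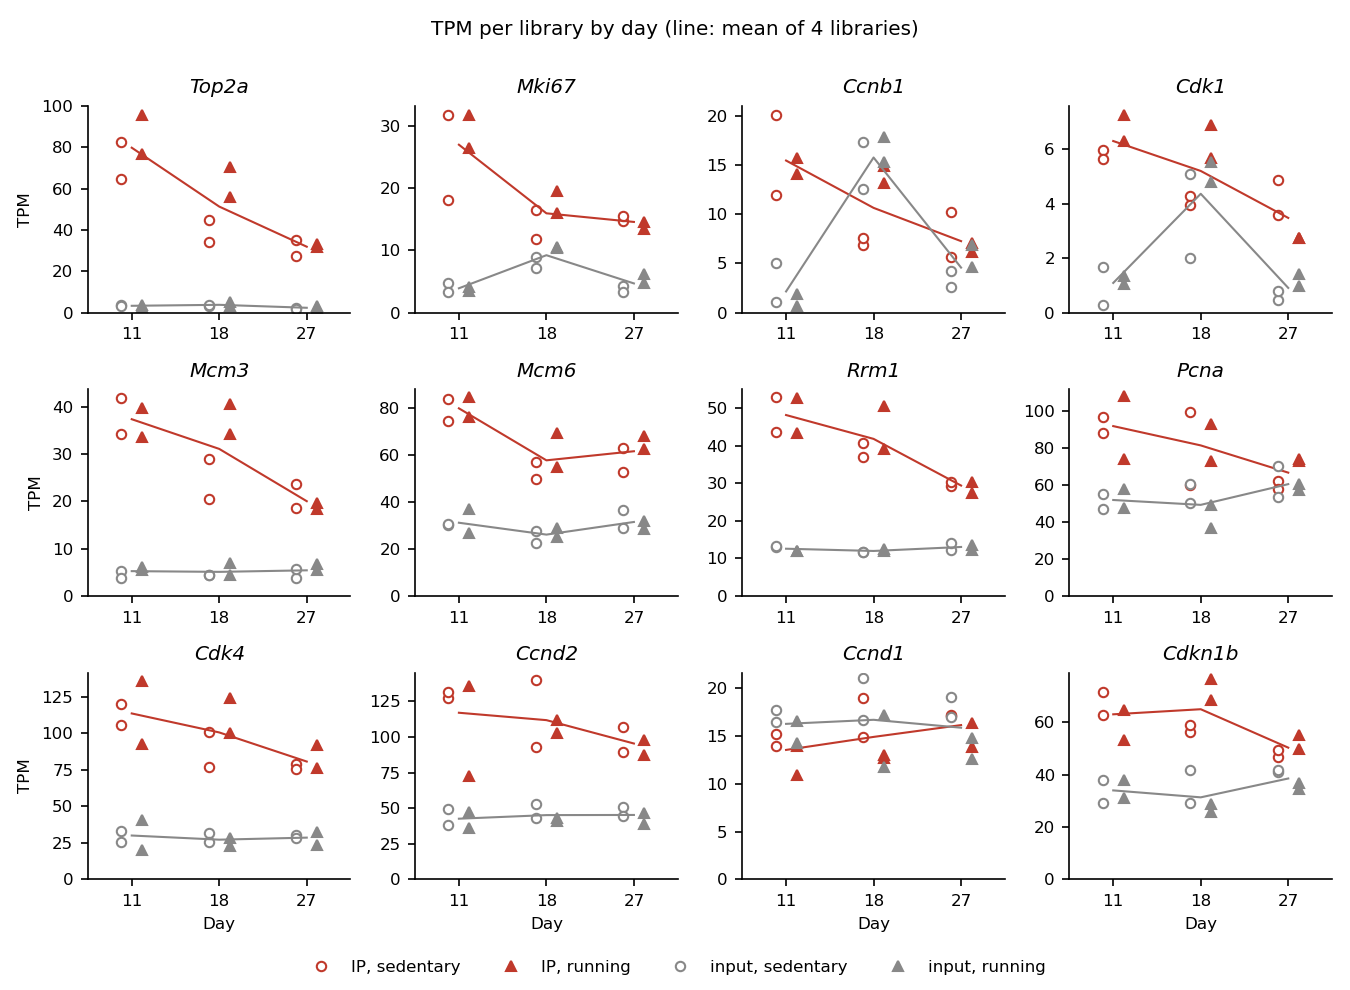
TPM of 12 of the genes in each library (symbols) by day, IP in red and input in grey, with a line through the mean of 4 libraries of a day. The IP level of Top2a falls from 79.8 to 31.9 TPM between day 11 and day 27, whereas Ccnd1 stays between 10.9 and 19.0 TPM in every IP library.

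Replication genes fell less. Mcm3 went from 37.4 ± 4.05 to 20.1 ± 2.45 TPM (SD, n = 4; log2 difference -0.87, SE 0.14), and the large subunit of ribonucleotide reductase, Rrm1, from 48.2 ± 5.35 to 29.4 ± 1.33 TPM (-0.69, SE 0.12), without overlap of the 4 libraries in either case. Mcm7 (-0.63), Rrm2 (-0.77), Mcm5 (-0.58), Mcm4 (-0.57), Mcm6 (-0.37) and Gmnn, the inhibitor of origin licensing (-1.12), were also called, Mcm6 not in most of the alternatives. Gmnn had 6.71 to 8.40 TPM at day 11 and 0.43, 3.69, 5.02 and 4.80 TPM at day 27, so its fall was largest in 1 library. Its day 27 mean of 3.485 TPM lay under the mean olfactory receptor level of the same libraries (2.79 to 4.99 TPM). Mcm2 (-0.42, adjusted p = 0.0793 by limma), Pcna (-0.45, adjusted p = 0.0659), Cdt1 (-0.48), Cdc6 (-0.49) and Tk1 (0.25) were not. The 95% interval of Mcm2 ran from -0.75 to -0.09, and that of Pcna from -0.78 to -0.12. In G1, Cdk4 fell from 114 ± 18.5 to 80.7 ± 7.86 TPM (-0.48, SE 0.14; adjusted p = 0.0304 by limma) and Cdk6 from 22.6 ± 2.22 to 15.8 ± 2.10 TPM (-0.49, SE 0.14; adjusted p = 0.0308 by limma), and both calls were lost in several alternatives, such as a fit without variance trend. The cyclins they bind had differences of 0.24 (Ccnd1, 95% interval -0.07 to 0.55) and -0.25 (Ccnd2, -0.63 to 0.12). Those of the inhibitors were -0.31 for Cdkn1b (adjusted p = 0.0584 by limma), -0.33 for Cdkn1a and 0.10 for Cdkn1c.

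Genes with a CHR in the promoter, whatever their role, numbered 19, of which 15 fell from day 11 to day 27 with a median of -0.82. Of the 25 with a promoter in the table but no CHR 13 fell and 2 rose, with a median of -0.49. The 7 with an E2F sequence and no CHR also had a median of -0.49, and 4 of them fell. These are descriptions of overlapping groups, since CHR and the mitosis role largely coincide.

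The other genes of the pathways are given beside a background of 3.88% lower and 11.4% higher, and the lists were not tested against one another. In IP between days 11 and 27, 32 of 56 other mitosis genes fell and none rose by the adjusted threshold (1 at the unadjusted one), with Shcbp1 (-1.27), Kif11 (-1.12), Smc4 (-0.72) and Kif15 (-1.10) at the lowest p. Of 42 other replication genes 12 fell and 0 rose (1 unadjusted), led by Prim1 (-0.87), Rnaseh2b (-1.04), Rfc4 (-1.0) and Mcm10 (-0.86). Of 30 other regulators of entry and exit 2 fell, E2f8 (-0.93) and Rbl1 (-0.60).

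The count of 33 depends on how the libraries are handled. It was 40 with median-of-ratios scaling, which also moved the share of higher calls among all called genes from 74.6% to 46.0%. It was 19 without the sedentary letter a library of day 11 and 17 without both letter a IP libraries of that day. With the olfactory receptor level of each library as a covariate, an alternative chosen after seeing the data, it was 7, while the median of the 56 genes was -0.65. That level rose from 2.42 ± 0.770 to 3.93 ± 0.958 TPM (SD, n = 4) between the days, and its part in the falls was not tested. Beside the falls, the summed intermediate progenitor markers dropped from 164 to 222 TPM at day 11 to 81.4 to 103 TPM at day 27, with Eomes (-1.26) called lower. The stem cell markers went from 884 to 1173 TPM to 631 to 921 TPM, ranges that overlapped. Of these markers only Vim (-0.97) and Fabp7 (-0.69) were called lower. The mature granule neuron markers rose from 703 to 781 TPM to 798 to 1169 TPM. The immature neuron markers went from a mean of 1156 to 679 TPM, with Calb2 (-1.22), Draxin (-0.82) and Neurod1 (-0.62) called lower. Their part in the result was not tested.

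Day 18 was set against the same day 11 libraries as day 27, so the results share them. Between day 11 and day 18 in IP, 10 genes fell (background 1.1%) and 0 rose (1 at an unadjusted p below 0.05; background at the adjusted threshold 4.56%). They were Mcm6 (-0.47) and 9 mitosis genes: Top2a (-0.66), Spc25 (-0.94), Tpx2 (-0.60), Nuf2 (-0.82), Cenpf (-0.59), Hmgb2 (-0.76), Ndc80 (-0.87), Birc5 (-0.64) and Mki67 (-0.71). The count was 0 without the sedentary letter a library of day 11, without the running or without the sedentary letter d library of day 18. It was 2 without the running letter a library of day 11, 4 without the sedentary letter c library of day 18, and 1 with the olfactory receptor covariate. Between day 18 and day 27, 1 gene fell, Tpx2 (background 0.0521%), and 0 rose (1 at an unadjusted p below 0.05). The Tpx2 call was lost on leaving out any 1 of the IP libraries of day 18 or 27 other than the running letter e library, and the count was 3 without either running library of day 11.

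The input followed another course. From day 11 to day 18, 26 of the 56 genes rose (background 37.8%) and 2 fell, Incenp (-0.59) and Ccne1 (-0.49; background 11.4%), so the genes rose about as often as all genes did. From day 18 to day 27, 20 fell (background 26.7%) and 2 rose (Ccne1 and Cdkn1c; background 10.4%). The 2 falls to day 18 were 1 fall without either letter b input library of day 11, the sedentary letter c or the running letter d library of day 18. The count of 20 was 10 without either letter c input library of day 18, 13 without either letter e library of day 27 and 11 without the sedentary letter f library. Between day 11 and day 27 the input had no called gene (3 higher without the sedentary letter a library of day 11), and at an unadjusted p below 0.05 it had 6 higher (background 13.1%) and 0 lower (background 1.15%). Top2a stayed at 1.92 to 5.2 TPM throughout the input, and Rrm1 at 11.7 to 14.1 TPM.

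The difference between the courses was tested directly. For the change from day 11 to day 27, 12 genes were lower in IP relative to input (background 0.323%) and 0 higher (0 also at the unadjusted threshold; background 1.46%). They were Cenpf, Mad2l1, Nuf2, Hmgb2, Tpx2, Top2a, Mki67, Cenpe, Ccnb1, Ccna2, Rrm1 and Mcm7, that is 8 mitosis genes, 2 cyclins and 2 replication genes. Top2a differed by -0.92 (SE 0.22; adjusted p = 0.0396 by limma), Mki67 by -1.01 (SE 0.25; adjusted p = 0.0433) and Ccnb1 by -1.95 (SE 0.40; adjusted p = 0.0153). The Ccnb1 difference holds a rise in input, from a mean of 2.15 to 4.575 TPM, beside the fall in IP. The part that background plays in that rise was not tested. The count of 12 was 2 without both letter a IP libraries of day 11. On leaving out 1 library it was 4 without the sedentary letter a IP library of day 11 or the running letter f input library of day 27. It was 5 without the sedentary letter e, the running or the sedentary letter f IP library of day 27, the sedentary letter b input library of day 11 or the sedentary letter f input library of day 27. It was 7 without the running letter b IP library of day 11, the running letter e IP or input library of day 27 or the running letter a input library of day 11. For the change from day 11 to day 18, 31 genes were lower in IP relative to input (background 25%), a share that rests on the day 18 input.

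**Figure D3:**
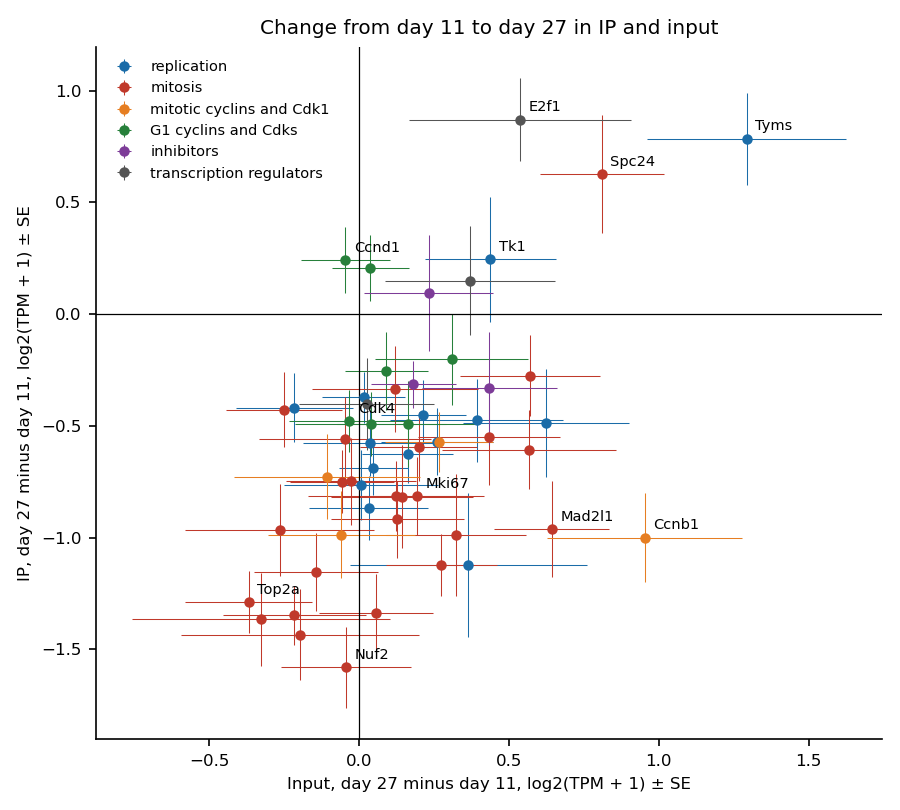
Change from day 11 to day 27 on the log2(TPM + 1) scale in input (x axis) and IP (y axis) for the 56 genes, coloured by role, with standard errors. Most mitosis genes lie below 0 in IP and near 0 in input, as Nuf2 does at -1.58 in IP and -0.04 in input, while E2f1, Tyms and Spc24 lie above 0 in both. Many of the input levels are near the background, where a change comes out small.

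Tyms, Spc24 and E2f1 stood apart from the genes they work with. Tyms makes thymidylate for DNA synthesis and lies at chr5:30058202-30073617 on the minus strand of GRCm38, Spc24 encodes a kinetochore protein (chr9:21755442-21760303, minus strand) and E2f1 a transcription factor of the G1/S transition (chr2:154559407-154569892, minus strand). None of them overlaps another protein-coding gene in GENCODE M21. Their levels were far above those of their partners: in IP Tyms averaged 749 ± 227 TPM beside 80.0 ± 16.7 TPM for Pcna, Spc24 averaged 208 ± 60.0 TPM beside 19.0 ± 11.2 TPM for Spc25, and E2f1 averaged 140 ± 45.8 TPM (SD, n = 12).
Input levels of Tyms went from 169 to 823 TPM at day 11 to 1749 to 3425 TPM at day 18 and back to 465 to 944 TPM at day 27. Spc24 went from 38.4 to 88.4 TPM to 191 to 291 TPM and back to 64.6 to 108 TPM, and E2f1 from 22.9 to 48.3 TPM to 60.1 to 390 TPM and back to 35.2 to 65.4 TPM. The rise from day 11 to day 18 was 6.85-fold for Tyms, 4.61-fold for Spc24 and 5.68-fold for E2f1 as ratios of means, and that of the mean olfactory receptor level was 6.19-fold. Ccnb1 rose 7.32-fold in the same libraries, from 0.631 to 5.00 TPM to 12.6 to 17.9 TPM. Within day 11, the input library with the highest olfactory receptor level, the sedentary letter a library at 4.41 TPM, also had the highest Tyms (823 TPM), Spc24 (88.4 TPM), E2f1 (48.3 TPM) and Ccnb1 (5.00 TPM) of the 4. Within the other days this did not hold for every gene. At day 18 the library with the highest receptor level, the running letter c library, was highest for Tyms, E2f1 and Ccnb1 but not for Spc24 (251 against 291 TPM). At day 27 the running letter f library was highest for Ccnb1 but not for Tyms (900 against 944 TPM), Spc24 (99.2 against 108 TPM) or E2f1 (41.0 against 65.4 TPM).
In IP, Tyms rose from day 11 to day 27 by 0.79 (SE 0.21; adjusted p = 0.0209 by limma) and E2f1 by 0.87 (SE 0.18; adjusted p = 0.00802 by limma), the 2 genes called higher. Without both letter a libraries of day 11 neither was called, nor with the olfactory receptor covariate. The count of 2 was 1 without either letter a IP library of day 11, the sedentary letter e library, or either letter f library of day 27.

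**Figure D4:**
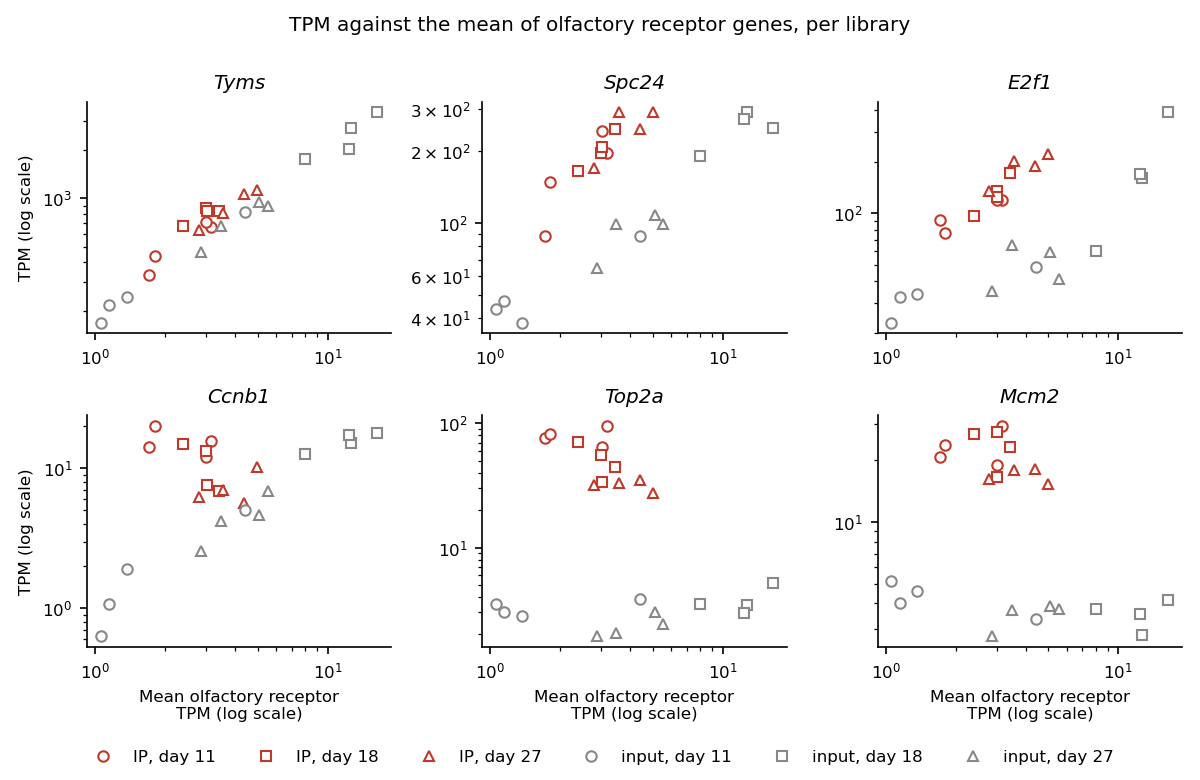
TPM of 6 genes in each of the 24 libraries against the mean TPM of 1122 olfactory receptor genes in the same library, both axes on log scales, IP in red and input in grey. Tyms ranges from 169 to 3425 TPM and is highest in the input libraries of day 18, whereas Top2a and Mcm2 stay low in every input library.

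Running had no detectable effect on these genes by the adjusted threshold. In IP, as the mean of the 3 days, none of the 56 genes was called higher (background 0%) or lower (background 0.00579%), and none was called within any single day or in input. At an unadjusted p below 0.05, 7 genes were higher in running mice (background 3.82%) and 0 lower (background 10.4%): Top2a (0.33), Cenpf (0.31), Spc25 (0.45), Tpx2 (0.28), Nuf2 (0.35), Rrm2 (0.39) and the inhibitor Cdkn1a (0.57). Top2a, with 60.6 ± 25.1 TPM in running and 48.0 ± 21.4 TPM in sedentary libraries (SD, n = 6, spread over the 3 days), had an adjusted p of 0.241 by limma and a 95% interval from 0.09 to 0.56. The median of the 56 genes was 0.07, against -0.07 over all genes. An F test of whether the running effect in IP differed between days called none of the 56 genes (4 at an unadjusted p below 0.05; 1 gene called among all 17282).

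The nominal differences lay mostly at day 18, when 13 genes were higher in running IP at an unadjusted p below 0.05 (background 4.66%) and 0 lower (background 4.31%). At day 11 the counts were 1 higher, Spc25 (background 0.914%), and 0 lower. At day 27 they were 1 higher, Cdkn1a (background 2.92%), and 2 lower, Tk1 and Gmnn (background 7%). Gmnn then had 0.43 and 3.69 TPM in running and 5.02 and 4.80 TPM in sedentary IP. The mean olfactory receptor level of these libraries was 2.79 and 3.56 TPM in running and 4.38 and 4.99 TPM in sedentary mice. Its part in the day 27 differences was not tested. At day 18 the IP level of Tpx2 was 40.7 and 39.0 TPM in running and 24.1 and 23.3 TPM in sedentary libraries, a log2 difference of 0.73 with a 95% interval from 0.33 to 1.12 and an adjusted p of 0.382 by limma. Ccnb1 had 14.9 and 13.2 TPM against 6.89 and 7.60 TPM (0.87, interval 0.26 to 1.47, adjusted p = 0.457 by limma). Rrm2 had 24.4 and 23.8 TPM against 16.7 and 11.5 TPM (0.75, interval 0.29 to 1.22, adjusted p = 0.431 by limma). The groups of 2 did not overlap in these cases, which is likely for genes shown with a low unadjusted p. With 2 libraries against 2, the smallest p that an exact permutation test could give is 0.333. In the same libraries the immature neuron markers summed to 1059 and 1570 TPM in running and 630 and 774 TPM in sedentary mice, and the intermediate progenitor markers to 155 and 181 against 128 and 132 TPM. Mature granule neuron markers were also higher with running (905 and 1014 against 748 and 795 TPM). Astrocyte markers (1474 and 1517 against 1664 and 2226 TPM) and oligodendrocyte markers (974 and 1024 against 1161 and 1233 TPM) were lower, without overlap. Their part in the differences was not tested.

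Among the genes outside mitosis, the running differences over the 3 days were 0.23 for Mcm2 (95% interval -0.04 to 0.50), 0.14 for Mcm6 (-0.06 to 0.33), 0.11 for Pcna (-0.16 to 0.38), 0.15 for Cdk4 (-0.09 to 0.39), -0.25 for Ccnd1 (-0.51 to 0.00), -0.18 for Ccnd2 (-0.49 to 0.12), -0.24 for Cdk6 (-0.48 to 0.01) and -0.18 for E2f1 (-0.51 to 0.14). Those of the mitotic markers Mki67, Cdk1 and Ccnb1 were 0.15 (-0.15 to 0.46), 0.07 (-0.26 to 0.40) and 0.21 (-0.14 to 0.56). The inhibitors had 0.09 (Cdkn1b, -0.10 to 0.27), -0.11 (Cdkn1c, -0.56 to 0.34) and 0.57 (Cdkn1a, 0.13 to 1.01; adjusted p = 0.254 by limma). Cdkn1a had 2.58 to 3.72 TPM in the 6 running and 1.08 to 4.36 TPM in the 6 sedentary IP libraries, so the groups overlapped through the sedentary letter b library of day 11. In input its running difference was 0.58 (adjusted p = 0.953 by limma). In input, 3 of the 56 genes were higher in running mice at an unadjusted p below 0.05 (Cdkn1a, Prc1 and Ndc80; background 2.01%) and 1 lower (Ccnd1; background 2.18%). Between IP and input, the running effect differed in none of the 56 genes by the adjusted threshold (1 at an unadjusted p below 0.05). Of the other cell cycle genes none was called for running in IP: at the unadjusted threshold 3 of 42 replication genes and 2 of 56 mitosis genes were higher and 0 lower, among them Clspn (0.35), Slbp (0.27), Ckap2l (0.44) and Cdca3 (0.40).

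**Figure D5:**
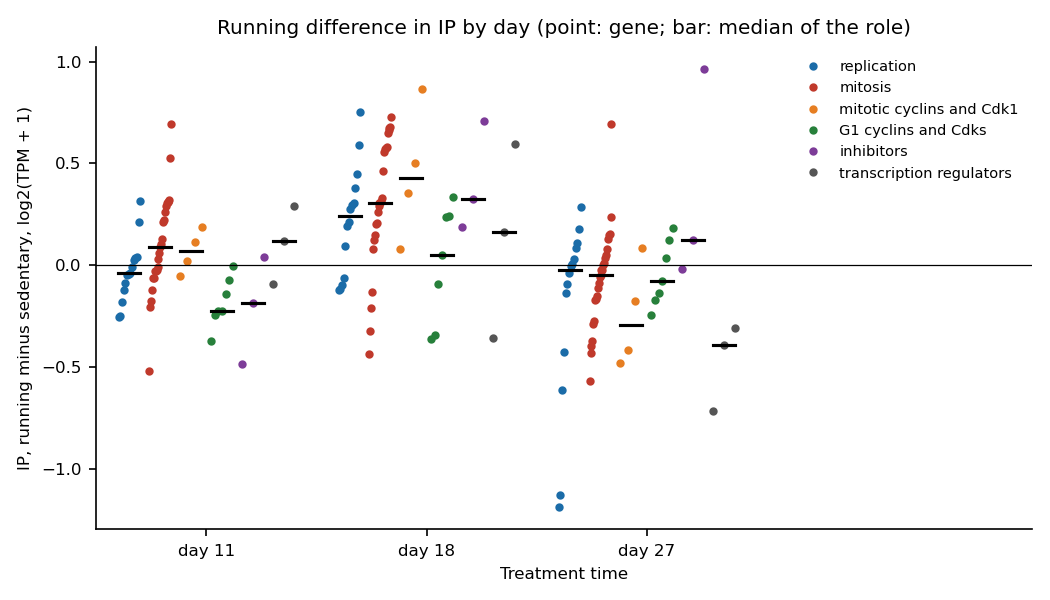
Running minus sedentary on the log2(TPM + 1) scale in IP at each treatment time, 1 point per gene, coloured by role, with a bar at the median of the role. At day 18 the 4 genes of the mitotic cyclin and Cdk1 group all lie above 0 with a median of 0.43, and at day 27 Gmnn and Tk1 lie lowest at -1.19 and -1.13.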

How the data were processed

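The authors deposited 1 table of TPM values for 24 libraries made with a stranded total RNA kit, per the labels' protocols. RSEM and mm10 are named in the submitters' processing notes. Which aligner, gene annotation, strand setting and version of RSEM were used is not given in the sources used here. Of the 56 genes, 13 overlap another protein-coding gene in GENCODE M21 (GRCm38), such as Mcm7, Cdk4 and Ccna2, so their values are less certain. Each column sums to 1000000 and the depth is unknown. Libraries were grouped by their labels into 12 groups of 2, and limma 3.58.1 in R 4.3.3 (lmFit, eBayes with trend and robust) was fitted to log2(TPM + 1) for genes whose TPM averaged 1 or more across the fitted libraries: 19507 genes in all 24 libraries, 17282 in IP and 20462 in input. All 56 genes passed in each fit. Each contrast's p-values had a Benjamini-Hochberg adjustment over all its genes, and the fit was tested on simulated data. The members and lists were chosen with earlier results of these data known. Named were 15 fixed genes, up to 4 more per role by lowest p, members against their role's direction, and small minorities not called. Alternatives were median-of-ratios scaling, a pseudocount of 0.1, no filter or a mean of at least 5 TPM, no variance trend, a replicate block, leaving out each library, and, added after seeing the data, the olfactory receptor covariate and leaving out both letter b IP libraries of day 11. Letters did not pair the libraries in the main fits. The titles join each IP library to an input library of the same activity, day and letter, and the 2 were fitted as independent.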

Additional observations from a re-analysis of the deposited data

Results flagged for a closer look

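The change between days differed between IP and input by the test of the difference itself (limma, two-sided). From day 11 to day 27, 12 of the 56 genes were lower in IP relative to input (background 0.323%), among them Mki67 (-1.01), Top2a (-0.92) and Ccnb1 (-1.95). The Ccnb1 difference holds a rise in input, from a mean of 2.15 to 4.575 TPM, beside the fall in IP. Without both letter a IP libraries of day 11, 10 of the 12 calls were lost. For day 18 against day 11, 31 were lower in IP relative to input, at a background of 25% of all genes. The groups hold 2 libraries each, so no group was large enough for a test of outlying samples.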

How the results depend on the processing

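No called difference of the 15 fixed genes, in IP against input or in IP from day 11 to day 27, changed its direction in any alternative. The count of genes higher in IP than in input was 48 to 49 on leaving out 1 library. The count lower in IP than in input (2) was 4 with median-of-ratios scaling, with Tyms and Ccnd1 added, and 1 each with a mean of at least 5 TPM, without the day 18 libraries and with the olfactory receptor covariate. In IP from day 11 to day 18, the 10 falls became 0 without variance trend, 0 without both letter a libraries of day 11 and 1 with the covariate, and 0 to 13 on leaving out 1 library, with 0 to 1 rises. Between days 11 and 27, the 33 falls became 17 without both letter a libraries, 30 without both letter b libraries, 7 with the covariate and 19 to 34 on leaving out 1 library. The 2 rises became 1 without variance trend, 0 without both letter a libraries, 0 with the covariate and 1 to 3 on leaving out 1 library. From day 18 to day 27 the 1 fall became 0 with median-of-ratios scaling, 0 without filter, 0 without variance trend and 0 to 3 on leaving out 1 library. In input from day 11 to day 18, the 26 rises became 12 at a mean of at least 5 TPM, where fewer of the genes were tested, and the 2 falls 1 to 3 on leaving out 1 library. Between days 11 and 27 in input, 0 to 3 genes rose on leaving out 1 library, 3 without the sedentary letter a library of day 11. From day 18 to day 27 in input, the 2 rises became 1 with a pseudocount of 0.1, 1 at a mean of at least 5 TPM and 0 to 2 on leaving out 1 library, and the 20 falls 9 at a mean of at least 5 TPM and 10 to 21. In the difference of the change from day 11 to day 27, the 12 genes became 7 without variance trend, 2 without both letter a libraries and 4 to 15 on leaving out 1 library. Of these 12 calls, 4 were lost and 0 gained with a pseudocount of 0.1, and likewise without filter. With median-of-ratios scaling 0 were lost and 2 gained, and likewise with a mean of at least 5 TPM. In the difference of the change from day 11 to day 18, the genes higher (0) became 1 with median-of-ratios scaling and 0 to 1 on leaving out 1 library. The cause of these changes was not tested. Deviations of running and sedentary libraries with the same letter correlated at 0.20, 0.05 and 0.06 in IP and 0.27, 0.08 and 0.08 in input for days 11, 18 and 27. Those of IP and input libraries with the same activity and letter correlated at -0.05, -0.01 and -0.03 (running) and -0.28, -0.01 and -0.01 (sedentary). The letters were therefore not taken as pairs. With the replicate block, 48 genes were higher and 2 lower in IP than in input, and 0 were called for running. Letters do not recur across days, so day contrasts could not be blocked. Depth is unknown, and levels near the olfactory receptor average limit what the low genes can show.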
